A study of Homo sapiens with 6 samples.

Results

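The 8q24 segment described here is a 3 Mb stretch of chromosome 8, chr8:127000001-130000000 in hg38, that holds the oncogene MYC, the long non-coding RNA gene PVT1 and a cluster of other non-coding genes. Its members were all peaks of V5-tagged GSE1 whose start fell inside these limits. They numbered 404 of the 21401 peaks called in DMSO-treated cells and 369 of the 13233 peaks called in MC2580-treated cells. The segment was chosen by its density of peaks in these same lists, so the density, the scores and the overlap given below are descriptions and not tests.

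The study asked where GSE1 lies on chromatin and how inhibition of the histone demethylase LSD1 changes this. NB4 cells, which derive from a human acute promyelocytic leukaemia, were transduced with the lentiviral vector pLEX_307 carrying GSE1 transcript variant 2 fused to V5, or with the empty vector (EV). Cells with GSE1 received the LSD1 inhibitor MC2580 at 2 µM or DMSO alone for 24 h, and the EV cells are labelled with no treatment. Sequencing of chromatin immunoprecipitated through the V5 tag (ChIP-seq) gave 3 ChIP libraries, and each had its own input library. The GSE1 profiled was thus a tagged protein expressed from a vector in addition to the cell's own GSE1. Each group held 1 library, so the values have no replicate error and the conditions could not be tested against each other. The data analysed were 2 peak lists, in which DMSO and MC2580 peaks had been called against their inputs and the EV ChIP. Both lists share the EV library as a control. Peak lists hold no expression values, so the NB4 label could not be checked against marker genes. Read depth was unknown. A peak of V5-tagged GSE1 means here a region that the peak caller placed above these backgrounds. The lists hold no read counts of the inputs, and neither input coverage nor DNA copy number of the segment was tested. Whether its peaks mark sites bound by GSE1 was therefore not tested.

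MYC encodes a transcription factor that drives growth and cell division, and its locus is surrounded by a wide desert of protein-coding genes filled with enhancers. PVT1 lies directly downstream of MYC, and its promoter is known to compete with MYC for enhancer contacts. The upstream side holds CASC8, CASC19, CCAT2, PRNCR1, PCAT1 and POU5F1B in a region of common cancer risk variants, while the far downstream side holds CCDC26, a long non-coding RNA gene whose neighbourhood contains enhancers of MYC used in blood-forming cells. GSE1 is a chromatin-associated protein found in complexes with LSD1 and histone deacetylases.

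The peaks of the segment did not fill it evenly. They fell into 2 blocks, separated by the rule that a block ends where neither list has a peak for 100 kb. The proximal block, chr8:127002554-128151934, was 1149 kb long and reached from 732.9 kb upstream of the MYC start to 416.5 kb downstream of it. It held 263 DMSO peaks and 234 MC2580 peaks, which covered 74.1% and 66.0% of its bases. The distal block, chr8:129259824-129696601, was 436.8 kb long, began 1524 kb downstream of the MYC start and lay mainly over CCDC26. It held 141 DMSO and 135 MC2580 peaks, which covered 54.8% and 43.6% of its bases. The 1108 kb between the blocks and the last 303.4 kb of the segment held 0 peaks in both lists, so every member belonged to a block.

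The edges of the blocks lay at nearly the same positions in both conditions. The distal block began at 129259988 in DMSO and at 129259824 in MC2580, which differ by 164 bp, and its last peaks ended 343 bp apart. The proximal block ended at 128151934 in DMSO and at 128149595 in MC2580, a difference of 2339 bp. These edges did not follow gene boundaries. PVT1 ran on for 35.2 kb beyond the last peak of the proximal block, and CCDC26 had 625.6 kb of its body in the space without peaks.

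The limits of the rule matter at one end only. The first DMSO member began at 127002554 with a score of 103.15 and had no other DMSO peak for 1389 kb upstream. In MC2580, 2 peaks lay just outside the limit, at chr8:126997932-126999285 with a score of 122.71 and at chr8:126999698-127001080 with a score of 123.87, and the first member began at 127005706 with a score of 172.08. These 2 peaks adjoin the proximal block and are counted with the rest of chromosome 8. At the other end, the last DMSO member, which ended at 129696601, scored 122.84, and the next DMSO peak followed 509.5 kb later at chr8:130206091-130207119 with a score of 577.15. The next MC2580 peak beyond the segment lay 3469 kb away.

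**Figure D1:**
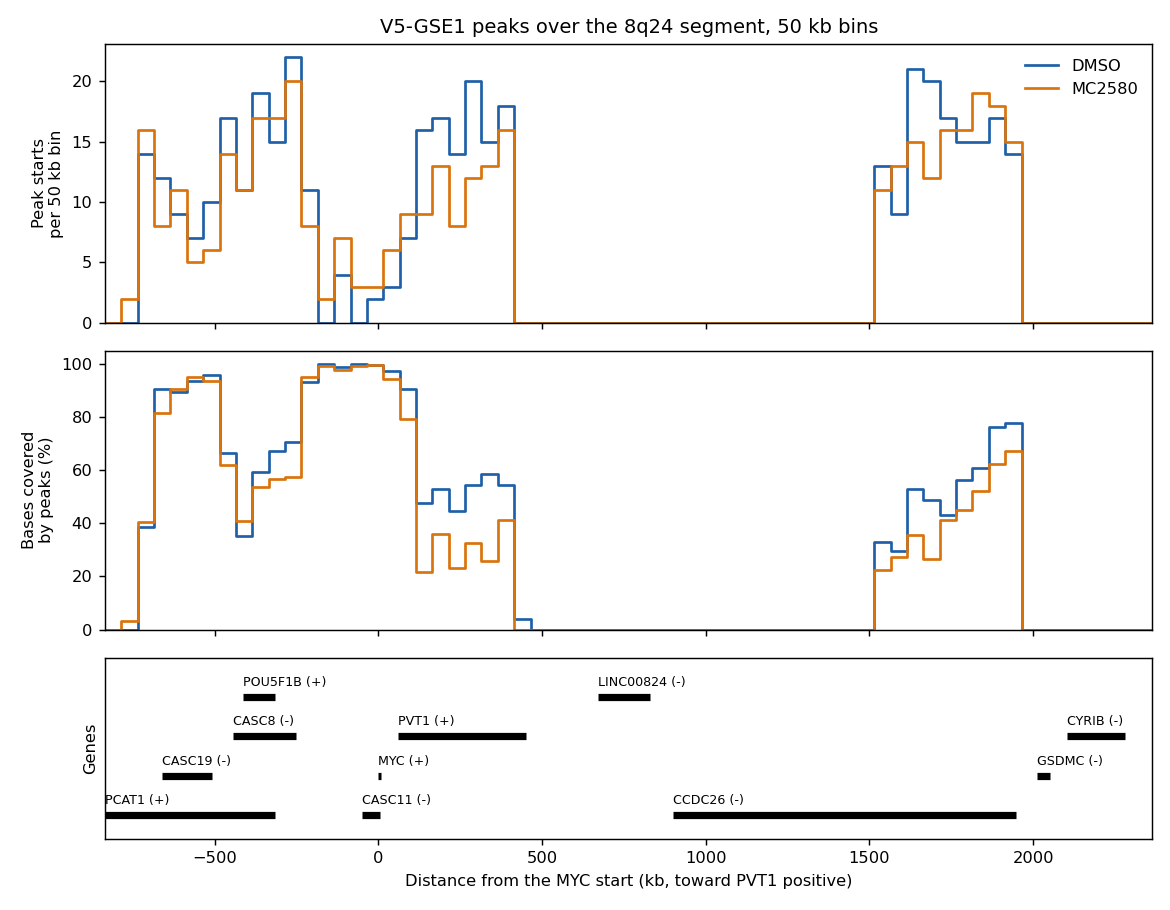
Peak starts per 50 kb bin (upper panel), the percentage of bases covered by peaks (middle panel) and the main genes with their strand (lower panel), against distance from the MYC start in kb, for the DMSO and MC2580 lists and 100 kb to each side of the segment. Both lists outline the same proximal and distal blocks with 1108 kb without peaks between them, and DMSO lies above MC2580 in covered bases over the PVT1 body and CCDC26.

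Set beside the rest of the chromosome, the segment made up 2.07% of the sequence of chromosome 8 but held 62.1% of its DMSO peaks (404 of 651, Wilson 95% interval 58.3 to 65.7) and 86.4% of its MC2580 peaks (369 of 427, 82.8 to 89.3). The proximal block held 228.8 DMSO and 203.6 MC2580 peaks per Mb, and the distal block 322.8 and 309.1. The remaining sequence held 1.74 DMSO and 0.409 MC2580 peaks per Mb. Outside the segment, the fullest of 143 bins of 1 Mb had 18 DMSO peaks, and 65 bins had 0 in DMSO and 112 had 0 in MC2580. Intervals here and below reflect counting error alone, because peaks of a library are not independent replicates.

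The number of peaks in the segment was similar in both lists. MC2580 peaks per DMSO peak came to 0.913 (exact conditional 95% interval 0.791 to 1.05) in the segment, 0.890 (0.743 to 1.07) in the proximal block and 0.957 (0.751 to 1.22) in the distal block. Elsewhere on chromosome 8 the ratio was 0.235 (0.173 to 0.314), from 58 and 247 peaks. The segment was chosen for its density of peaks in these same lists, so this difference may be partly built in and is no test. Over all chromosomes the ratio was 0.618, so the segment lay above it and the rest of chromosome 8 below it. When peaks of a list within 1 kb of each other were merged, the segment had 152 DMSO and 179 MC2580 peaks, so that the ratio rose to 1.18 and changed direction. The covered length is less open to such splitting. DMSO peaks covered 1091 kb and MC2580 peaks 949.4 kb. Their ratio was 0.870, with 0.890 in the proximal block, 0.795 in the distal block and 0.215 on the rest of the chromosome.

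Most of the strongest peaks lay around MYC, as did the widest peak of each list. The peak caller's score is 10 times the negative log10 of the p-value of a peak, and the calling threshold of 1e-05 equals a score of 50. It grows with read depth, and most of the largest scores share the value 3100. Scores of 3100 and above are therefore not ranked here. From chr8:127543176 to 127837796, a stretch of 294.6 kb that reaches from -192.3 kb to 102.4 kb relative to the MYC start, peaks covered 99.3% of the bases in DMSO and 98.0% in MC2580. DMSO filled this stretch with 12 peaks of a median width of 15752 bp, and MC2580 filled it with 28 peaks of a median width of 8244 bp. In each list 7 of these peaks scored 3100 or more, of 8 in the DMSO segment and 9 in the MC2580 segment. The limits of this stretch are the start of the widest DMSO peak and the end of a DMSO peak scoring 3100. Its coverage and its count of top scores therefore follow in part from how it was cut and are no independent result.

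MYC itself lay wholly inside a single peak in each condition. In DMSO this peak spanned 40684 bp (chr8:127728513-127769196) and in MC2580 29444 bp (chr8:127715026-127744469), both with a score of 3100. Relative to the MYC start, the DMSO peak began at -6.92 kb and the MC2580 peak at -20.4 kb. Directly upstream of this DMSO peak lay another DMSO peak (chr8:127714717-127728459), also with a score of 3100. The lists thus differed here mainly in where the covered bases were divided into peaks. CASC11, the antisense non-coding gene that overlaps the MYC start, was covered to 99.8% in DMSO and to 99.6% in MC2580. The start of PVT1 lay in a DMSO peak of 39136 bp (chr8:127774029-127813164) with a score of 3100, which 6 MC2580 peaks overlapped. One of them, of 14107 bp (chr8:127787761-127801867), held the PVT1 start and the microRNA gene MIR1204 and had a score of 3207.81.

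The widest DMSO peak of the segment measured 78318 bp (chr8:127543176-127621493), lay between CASC8 and MYC, and was met by 5 MC2580 peaks that covered 99.3% of it. The next, of 65988 bp (chr8:127648687-127714674), reached over the downstream part of CASC11 and was met by 4 MC2580 peaks. The widest MC2580 peak measured 32836 bp (chr8:127681962-127714797) and lay inside that DMSO peak for 99.9% of its length, together with its neighbour. These wide DMSO peaks thus had MC2580 peaks over nearly all of their bases, divided into more pieces.

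**Figure D2:**
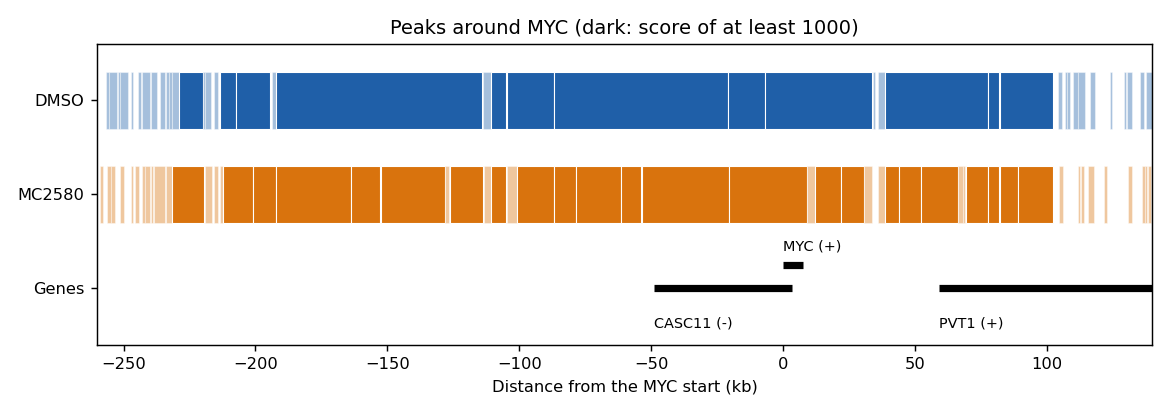
Peaks of the DMSO and MC2580 lists drawn to scale around MYC, with distance from the MYC start in kb on the x axis, dark for a score of at least 1000 and light for a lower score. From -192.3 to 102.4 kb, limits taken from the ends of DMSO peaks, the 12 DMSO and 28 MC2580 peaks leave almost no base uncovered.

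Wide peaks were defined as those above 7875 bp, the 99th percentile of both lists together. The segment held 14 such DMSO peaks (3.47%), against 0.850% of DMSO peaks over all chromosomes, and 25 such MC2580 peaks (6.78%), against 1.25%. All lay in the proximal block, and the rest of chromosome 8 had 0 in both lists, where the widest peaks measured 2688 and 1483 bp. The wide peaks added up to 369.9 kb in DMSO and 380.5 kb in MC2580, or 33.9% and 40.1% of the bases covered in the segment. None lacked a counterpart in the other list, which a wide peak in a densely covered block meets easily. The other list covered a median of 99.3% of a wide DMSO peak and 99.9% of a wide MC2580 peak.

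A further group of wide peaks lay upstream over CASC19, a non-coding gene of the cancer risk region, and the overlapping PCAT1. Runs of 50 kb bins covered to at least 80% in both lists, a limit chosen after the bins were seen, picked out 2 parts of the proximal block. The first was chr8:127050001-127250000, with 92.4% of bases covered in DMSO and 90.3% in MC2580, and the second was chr8:127500001-127800000. The second is called the MYC run here and overlaps the 294.6 kb stretch around MYC without being identical to it. CASC19 had 25 DMSO and 21 MC2580 peaks, which covered 93.3% and 93.7% of its body. Its strongest DMSO peak (chr8:127155506-127176490, 20985 bp) scored 3100 and lay wholly inside 1 MC2580 peak. PRNCR1, inside CASC19, lay under a single DMSO peak with a score of 2765.09 and under 3 MC2580 peaks, the strongest at 2834.71.

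Between these runs, over CASC8 and POU5F1B, a retrogene related to the stem-cell factor OCT4, the peaks were narrower and weaker. CASC8 had 65 DMSO and 61 MC2580 peaks, with highest scores of 595.73 and 481.87, and they covered 56.2% and 51.6% of it. POU5F1B had 34 peaks in each list. CCAT2, a short non-coding gene, lay under 1 DMSO peak with a score of 427.04 and was met by 2 MC2580 peaks, the stronger at 481.87. PCAT1 extends beyond the segment, and its 106 DMSO and 95 MC2580 members covered only its downstream part.

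Of the parts of the blocks compared, the body of PVT1 was where the covered share differed most between the lists. From 127800001, which still takes in the last part of the stretch around MYC, to the end of the proximal block, peaks covered 57.9% of the bases in DMSO and 37.0% in MC2580. The ratio of these shares was 0.639, against 0.993 in the MYC run, 0.977 in the CASC19 run, 0.906 between the runs and 0.795 in the distal block. Both runs were picked for bins covered to at least 80% in both lists. Their ratios near 1 therefore follow from this choice and are no independent comparison. Over the whole gene, PVT1 had 108 DMSO peaks with a median score of 133.5 and 81 MC2580 peaks with a median score of 104.4, which covered 53.3% and 34.5% of it. Chosen after the values were seen, the strongest DMSO peak of the PVT1 body outside the stretch around MYC, chr8:127915022-127919436, scored 2189.93 and the stronger of its 2 MC2580 counterparts 698.13.

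The small RNA genes inside PVT1 are short enough to fall inside a peak or between peaks. MIR1204, next to the PVT1 start, lay in a peak in both lists. MIR1205, MIR1207 and MIR1208 lay in DMSO peaks with scores of 156.37, 286.28 and 229.16 and in no MC2580 peak, the nearest of which were 3041, 1665 and 521 bp from their starts. MIR1206 lay in no peak of either list, although the nearest DMSO peak ended 161 bp from it. RNU4-25P, a small nuclear RNA pseudogene, lay only in a DMSO peak with a score of 225.6, and RNVU1-32 lay in no peak. LINC02912, a short non-coding gene within PVT1, had 1 peak in each list, with scores of 111.41 and 122.63.

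CCDC26 had 137 DMSO and 132 MC2580 peaks, and all lay in the 423.9 kb of its body that fell in the distal block. Its annotated start, on the minus strand, was inside a peak of both lists, with scores of 211.25 in DMSO and 135.86 in MC2580. The covered share was highest toward this end: in the bin 129650001 to 129700000 peaks covered 78.0% of the bases in DMSO and 67.3% in MC2580, against 33.1% and 22.6% in the bin 129250001 to 129300000. No distal peak reached the scores around MYC. The highest DMSO score there was 1157.09 and the highest MC2580 score 653.83.

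The 5 highest-scoring DMSO peaks of the distal block all lay in CCDC26. They were chosen after their values were seen and for a high DMSO score, so lower scores in the other list are no independent sign of a difference. The DMSO peak chr8:129590957-129595107 scored 1157.09 and the stronger of its 2 MC2580 counterparts 338.73, a ratio of 0.293. The DMSO peak chr8:129546101-129553241 scored 1073.58 against 176.31, a ratio of 0.164, and the DMSO peak chr8:129663829-129667112 scored 955.34 against 445.96, a ratio of 0.467. The other peaks, chr8:129631584-129637144 and chr8:129677704-129682312, scored 931.45 against 653.83 and 918.54 against 408.36, with ratios of 0.702 and 0.445. MIR3686, a microRNA gene inside CCDC26, lay in a peak of both lists with scores of 174.34 and 53.54. RN7SKP206, a 7SK pseudogene there, lay only in a DMSO peak, with a score of 62.96.

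Of 43 annotated genes that overlap the segment, 26 have a gene name other than an identifier, and 4 of all 43 are protein coding. A DMSO peak touched 18 of the 26 and an MC2580 peak 13, each of which also had a DMSO peak. The named genes touched in DMSO alone were MIR1205, MIR1207, MIR1208, RNU4-25P and RN7SKP206, of 0.063 to 0.293 kb. Whether genes this short meet a peak depends on the share of bases covered, 36.4% of the segment in DMSO and 31.6% in MC2580. The difference is therefore not read as a result about these genes. The 8 named genes without a peak in either list were LINC00824, RN7SKP226, GSDMC, CYRIB, MTRF1LP2, RPL15P12, RNVU1-32 and MIR1206. GSDMC, which encodes a pore-forming gasdermin, and CYRIB, which encodes a RAC1-binding regulator of actin, lie beyond the distal block, and the nearest peaks to the GSDMC start were 90023 bp away in DMSO and 90366 bp in MC2580. Of the protein-coding genes, MYC and POU5F1B had their start inside a peak in both lists.

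Scores in the segment were higher than elsewhere on the chromosome. The median score was 138.01 (order-statistic 95% interval 125.9 to 156.45) in DMSO and 126.04 (117.82 to 139.48) in MC2580, against 102.44 (93.98 to 112.57) and 77.7 (71.3 to 106.4) on the rest of chromosome 8. In the proximal block the medians were 151.55 and 145.7, and in the distal block 119.5 and 98.26. Scores of 100 or more were found for 282 DMSO members (69.8%), against 44.3% of DMSO peaks over all chromosomes, and for 230 MC2580 members (62.3%), against 33.8%. The corresponding shares outside the segment on chromosome 8 were 51.4% and 39.7%.

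Among peaks of like width, however, the members tended to score lower than the others of the chromosome. Among peaks of 1000 to below 1500 bp, the median score was 112.84 (108.68 to 119.5) for 117 DMSO members and 187.38 (138.57 to 219.32) for 93 DMSO peaks on the rest of chromosome 8. For MC2580 the medians were 104.03 (99.19 to 116.16) for 110 members and 144.9 (122.7 to 219.2) for 18 other peaks. For this width class, the interval of the members did not overlap that of the other peaks of the same list. In MC2580 the 18 other peaks include the 2 that adjoin the proximal block, and the score of 1 of them is the lower bound of 122.7. Among peaks of 750 to below 1000 bp, the DMSO medians were 72.5 (66.2 to 77.2) and 83.2 (77.5 to 88.5), while the MC2580 medians of 71.7 (68.3 to 75.9) and 74.8 (67.1 to 97.6) had overlapping intervals. From 1500 to below 3000 bp the DMSO intervals overlapped, with 210.9 (186.2 to 229.2) for 126 members and 280.0 (125.6 to 727.8) for 8 other peaks. MC2580 had 0 other peaks of that width. The highest score on the rest of the chromosome, 2223.22 in DMSO, came from a peak no wider than 2688 bp. In the segment the score followed width closely (Spearman's rho across peaks 0.939 in DMSO and 0.951 in MC2580, against 0.782 and 0.744 on the rest of the chromosome). Peaks of 1 library share its depth and are not independent replicates.

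**Figure D3:**
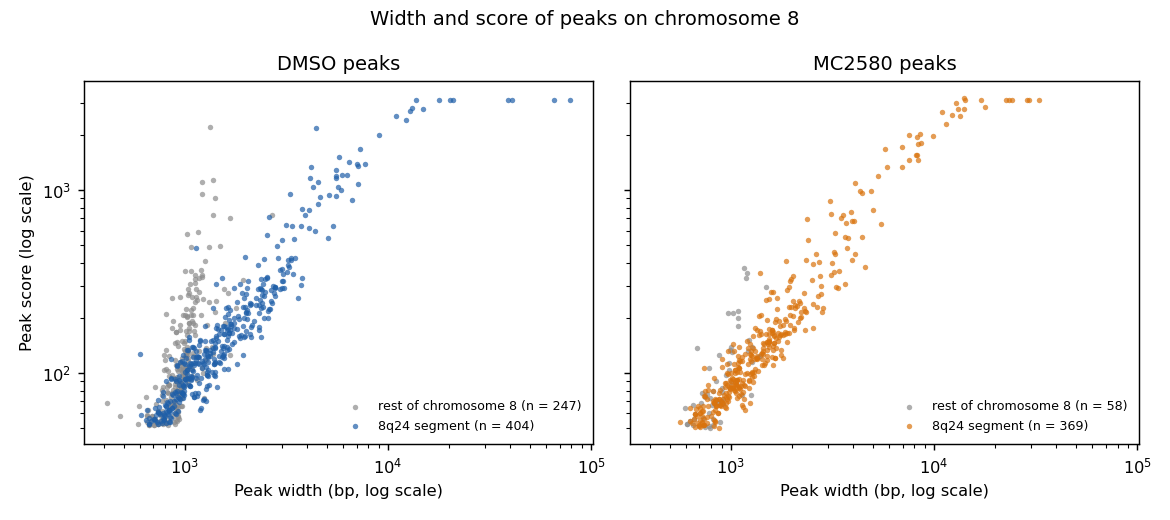
Score against width of each chromosome 8 peak, both on log scales, for the DMSO list (left) and the MC2580 list (right), coloured for the segment and grey for the rest of the chromosome. Peaks of the segment form a band that extends to 78318 bp in DMSO and 32836 bp in MC2580, while the other peaks stay at or below 2688 bp, and many of them reach higher scores at like width.

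Most members had a counterpart in the other condition. By an overlap of at least 1 bp, 303 of the 404 DMSO members (75%, Wilson 95% interval 70.6 to 79.0) met an MC2580 peak, against 33.6% of all DMSO peaks. Of the 369 MC2580 members, 326 (88.3%, 84.7 to 91.2) met a DMSO peak, against 58.0% of all MC2580 peaks. Among the other peaks of chromosome 8 the shares were 20.2% (15.7 to 25.7) and 86.2% (75.1 to 92.8), so that the DMSO share was higher in the segment while the intervals of the MC2580 shares overlapped. In the proximal block the shares were 76.8% and 91.5%, and in the distal block 71.6% and 83.0%. Where peaks cover so many bases, neighbouring peaks touch easily: an overlap of at least 50% of both peaks was found for 42.6% of the DMSO and 46.6% of the MC2580 members.

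The overlap was also measured over bases. In the proximal block, MC2580 peaks covered 79.9% of the bases inside DMSO peaks and 26.1% of those outside them. In the distal block they covered 57.6% and 26.5%. Elsewhere on the chromosome, where peaks are sparse, they covered 18.2% of the bases inside DMSO peaks and 0.00566% of those outside. MC2580 peaks covered 66.0% of the proximal block, 43.6% of the distal block and 0.0369% of the rest of the chromosome. These shares limit how far inside and outside can differ, so the regions are not ranked by this contrast. The bases shared by both lists were 73.2% of all bases covered by either list in the proximal block, 47.3% in the distal block and 17.6% on the rest of the chromosome. This last measure rises with the share of bases covered, which differs between these regions.

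Many overlaps were not 1 to 1. Of the DMSO members, 101 met no MC2580 peak, 226 met 1, 65 met 2 and 12 met 3 or more, with at most 6. Of the MC2580 members, 43 met no DMSO peak, 259 met 1, 62 met 2 and 5 met 3 or more. The members without a counterpart were weaker, with a median score of 92.79 against 172.36 for the other DMSO members and 82.11 against 136.43 for the other MC2580 members. Score followed width, and a wider peak meets a counterpart more easily, so this is partly built in. On the rest of chromosome 8 the medians went the same way, with 92.3 against 207.6 in DMSO and 67.8 against 80.9 in MC2580.

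The strongest peaks found in 1 list only lay in CCDC26, PVT1 and CASC8. In DMSO, they were chr8:129354894-129357328 and chr8:129553643-129555058 in CCDC26, with scores of 306.61 and 305.27, and chr8:128048637-128051001, chr8:128062626-128065021 and chr8:128149965-128151934 in PVT1, with scores of 286.28, 265.88 and 229.16. In MC2580 the strongest was chr8:127304254-127307674 in CASC8, with a score of 359.7, followed by chr8:129273495-129274985 in CCDC26 with 249.5. The other 3 of the first 5, in CCDC26 and PVT1, scored between 164.14 and 174.93. All 5 DMSO examples and the 4 MC2580 examples after the first lay in PVT1 or CCDC26, and none lay in the MYC run. That run was picked for high coverage in both lists, 98.2% in DMSO and 97.6% in MC2580. A peak there could hardly lack a counterpart, so their absence is no result about the location. PVT1 and CCDC26 held 108 and 137 of the 404 DMSO members and 81 and 132 of the 369 MC2580 members. Most members of either list thus lay in these genes, and the location of the examples is not read as a concentration there.

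The scores of matched peaks were lower in MC2580 in most pairs. In the segment, 142 DMSO peaks met exactly 1 MC2580 peak that met no other, and the MC2580 score was lower in 92 of these pairs (64.8%, 56.6 to 72.2), against 76.7% of such pairs over all chromosomes. The median ratio of MC2580 to DMSO score was 0.852 (0.753 to 0.924), with 0.868 (0.773 to 0.958) in 85 proximal pairs and 0.753 (0.601 to 0.924) in 57 distal pairs. Outside the segment on chromosome 8, 45 of 50 pairs (90.0%, 78.6 to 95.7) were lower, with a median ratio of 0.455 (0.316 to 0.600). The segment was chosen by its peaks in these lists, so this contrast is a description and no test. Since score grows with depth, and depth was unknown, binding and depth cannot be told apart in these ratios. The pairs leave out the widest DMSO peaks, which met several MC2580 peaks.

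Single pairs were spread widely on both sides. The lowest ratio, 0.167, came from a CCDC26 pair in which chr8:129555113-129556253 scored 484.19 in DMSO and its counterpart 80.68 in MC2580. A PVT1 pair at chr8:128100359-128103554 scored 357.45 and 75.91. The highest ratio, 3.26, also lay in CCDC26, where chr8:129392513-129393249 scored 52.62 in DMSO and its counterpart 171.77, and in another CCDC26 pair the score was 112.47 in DMSO and 340.79 in MC2580.

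**Figure D4:**
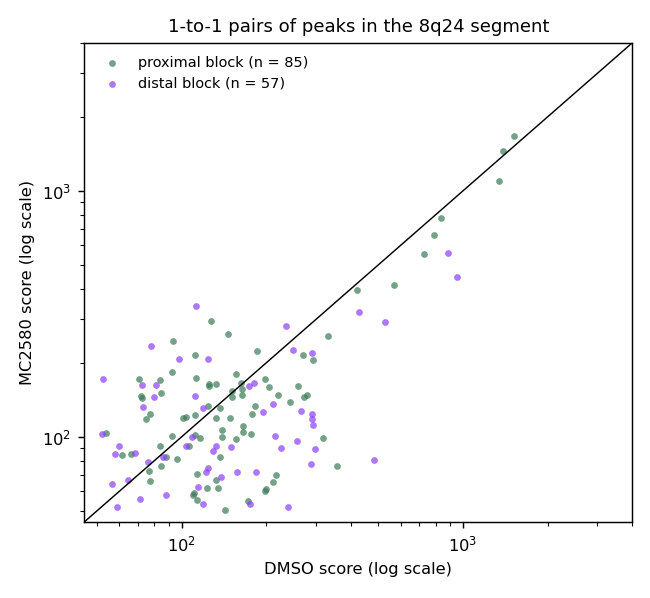
MC2580 score against DMSO score for the 142 pairs of peaks of the segment that overlap 1 to 1, both on log scales, coloured by block, with the line of equal scores. More points lie below the line (92) than above it (50), in both blocks.

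Along the segment, 32 of 60 bins of 50 kb held peaks. MC2580 covered fewer bases than DMSO in 27 of these and more in 5, but it had fewer peak starts in 17, more in 14 and the same number in 1. The covered bases were thus lower in MC2580 in most bins, without a like shift in the number of peaks.

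By position relative to genes, most members were intronic. In DMSO 52.7% (47.9 to 57.5) of members and in MC2580 52.3% (47.2 to 57.3) were classed as intron, against 36.0% (30.3 to 42.2) and 43.1% (31.2 to 55.9) on the rest of chromosome 8. Distal intergenic peaks made up 4.21% (2.64 to 6.63) and 6.23% (4.19 to 9.18), against 22.3% (17.5 to 27.9) and 22.4% (13.6 to 34.7). The long non-coding genes PCAT1, PVT1 and CCDC26 span much of both blocks. Promoters, meaning within 3 kb of any annotated transcription start, held 32.7% and 30.1% of members, close to the 35.6% and 31.0% on the rest of the chromosome. These were nearly all starts of non-coding transcripts: with starts of protein-coding genes alone, the share was 1.73% in DMSO and 1.90% in MC2580 in the segment, against 21.5% and 12.1% elsewhere on the chromosome. In the proximal block 29.9% of all 1 kb windows touched such a 3 kb stretch, against 37.3% (31.6 to 43.2) of the DMSO peaks and 34.2% (28.4 to 40.5) of the MC2580 peaks there. In the distal block the window share was 21.6%, inside the intervals of the 24.1% (17.8 to 31.8) of DMSO and 23.0% (16.7 to 30.7) of MC2580 peaks. Peaks wider than a window meet such a stretch more easily.

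The base composition of members was close to that of the whole block in the proximal block, and slightly richer in GC in the distal block. Each block includes its peaks, which cover 74.1% of the proximal block in DMSO and 66.0% in MC2580. A close match there is therefore partly built in. The space without peaks between the blocks had 38.8% GC. In the proximal block the median GC content was 42.5% (41.9 to 43.1) for DMSO and 42.7% (42.1 to 43.7) for MC2580 peaks, and the whole block had 42.6%. In the distal block the peaks had 40.7% (40.0 to 41.4) and 41.6% (40.9 to 42.5), and the block 39.0%, below both intervals. On the rest of chromosome 8 the peaks had 46.8% (46.0 to 47.7) and 48.0% (45.7 to 49.5), while that sequence as a whole had 40.1%.

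Short words typical of the sites of blood-cell transcription factors were counted on both strands in windows of 200 bp at peak centres. RUNX factors, central regulators of blood formation, have the core word TGTGGT, which occurred in 14.4% of the DMSO (11.3 to 18.1) and 12.5% of the MC2580 members (9.48 to 16.2), against 13.5% of all windows in both blocks. On the rest of chromosome 8 it occurred at 36.0% of DMSO (30.3 to 42.2) and 32.8% of MC2580 peak centres (22.1 to 45.6), against 13.4% of all windows there. The word therefore was about as frequent at the members as in all windows of the blocks. At the other peaks of the chromosome it was more frequent, with intervals that do not overlap. Block windows include the peaks, because peaks of either list cover 80.9% of the proximal and 66.8% of the distal block. The members were thus compared largely with themselves. The space without peaks between the blocks held the word in 12.3% of windows (11.4 to 13.1).

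The DMSO list gave the same picture for CEBP and PU.1, factors of myeloid differentiation. The CEBP word TTGCNNAA occurred in 11.1% of the members (8.43 to 14.6) and 11.3% of all windows in the blocks, against 27.5% (22.3 to 33.4) at the other DMSO peaks of the chromosome and 10.97% of all windows there. The PU.1 word GAGGAA occurred in 17.6% of the members (14.2 to 21.6) and 17.6% of block windows, against 28.3% (23.1 to 34.3) at the other DMSO peaks and 15.3% of all windows there. In MC2580, where only 58 peaks lie outside the segment, the intervals for CEBP and PU.1 overlapped. Here too the block windows include the peaks. Windows of the space without peaks between the blocks held the CEBP word in 12.7% (11.9 to 13.6) and the PU.1 word in 17.7% (16.7 to 18.8).

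In windows of 200 bp the remaining words separated the members from the other peaks of the chromosome less. The AP-1 word TGANTCA occurred in 8.42% of the DMSO and 7.05% of the MC2580 members, the GATA word AGATAA in 15.3% and 12.5%, and the E-box word CACGTG, to which MYC itself can bind, in 1.24% and 1.90%. In the same order, all windows of the blocks held these words in 7.0%, 15.3% and 1.54% of cases. The other peaks of the chromosome held them in 13.0%, 15.4% and 1.21% in DMSO and 10.3%, 13.8% and 1.72% in MC2580. In windows of 400 bp the AP-1 word occurred in 15.1% (11.9 to 18.9) of DMSO members. At the other DMSO peaks it then occurred in 23.9% (19.0 to 29.6), an interval that does not overlap. The MC2580 intervals for AP-1 overlapped. The GFI1 word AAATCA, of a repressor that recruits LSD1, occurred in 19.8% (16.2 to 23.9) of the DMSO and 12.2% (9.24 to 15.9) of the MC2580 members, against 18.8% of block windows. The other peaks of the chromosome held the GFI1 word in 21.1% in DMSO and 19.0% in MC2580. In windows of 400 bp the intervals of the lists overlapped, with 32.9% (28.5 to 37.6) of the DMSO and 29.0% (24.6 to 33.8) of the MC2580 members, and the shares in the proximal block were 30.4% and 30.3%. A match describes letters in a window and not a bound site, no word contains another, and the words are short enough to occur often without a factor.

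**Figure D5:**
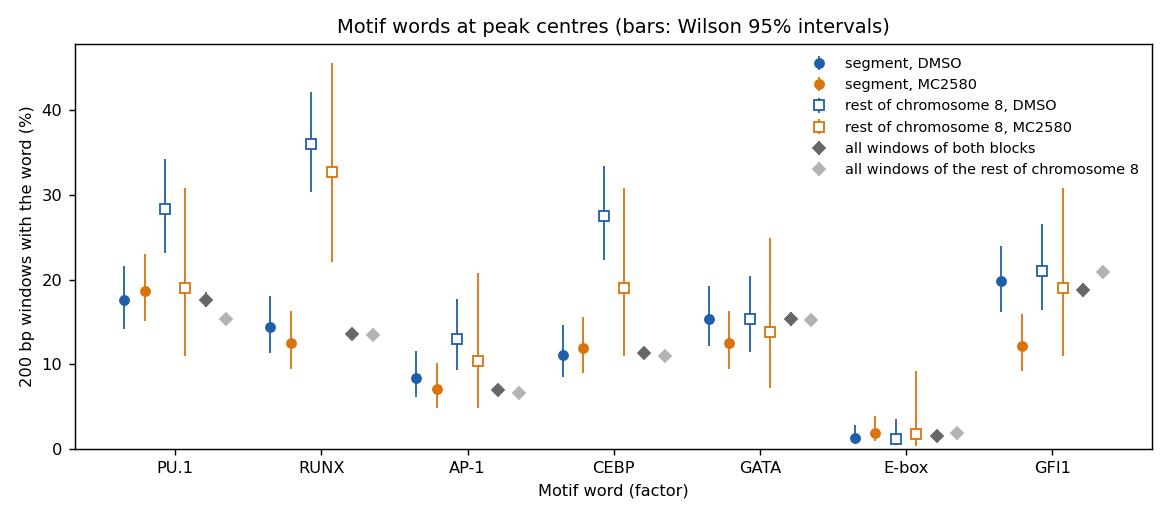
Percentage of 200 bp windows that hold each motif word, with Wilson 95% intervals, for peak centres of the segment (filled circles), peak centres on the rest of chromosome 8 (open squares) and all windows of both blocks or of the rest of the chromosome (diamonds). For RUNX, the segment lies at 14.4% in DMSO and 12.5% in MC2580, next to 13.5% of block windows, and the rest of the chromosome at 36.0% and 32.8%. Block windows include the peaks.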

How the data were processed

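V5 ChIP-seq was analysed in NB4 cells expressing V5-GSE1 and treated with DMSO or MC2580, with 1 library per group. According to the study's methods, reads were aligned by the authors to hg38 with Bowtie, kept unique matches, and called peaks with MACS at p = 1e-05 against the matching input as well as the EV ChIP. How these calls were combined was not stated. Each deposited list gives positions and a score, which is the peak caller's own value, and read depth is unknown. The EV ChIP and the inputs were not analysed on their own.

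Each list was assigned to its condition by its own name, DMSO or MC, which was then matched to the sample titles. Coordinates were counted from 1. Genes came from GENCODE version 44, and peaks were classed in the order promoter, exon or UTR, intron, distal intergenic. Named genes were MYC, PVT1, CASC8 and every other gene of the segment with a symbol that is not a clone name. Named peaks were the 5 highest-scoring, the 5 highest-scoring without a counterpart and the 5 widest of each list. Further examples are given as chosen after their values were seen. The members, lists and motif words were chosen with earlier results of these data known. No test between conditions was made. Shares have Wilson 95% intervals, medians order-statistic intervals and ratios of peak numbers exact conditional intervals. The interval and overlap functions were tested on simulated data. The 50 kb runs and the peaks outside the named rule were described only. Tables were handled with pandas 2.3.3 and numpy 2.4.6 in Python 3.11.15, intervals came from scipy 1.17.1 and plots from matplotlib 3.10.9.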

Additional observations from a re-analysis of the deposited data

How the results depend on the processing

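Of 87 alternative values, 49 stayed near the value reported (inside its interval, or for counts and lengths inside a factor of 1.5) and 38 did not. No paired analysis was possible because each condition had 1 library. With a score of at least 100, MC2580 kept 230 peaks in the segment. Merging peaks within 1 kb left 152 DMSO and 179 MC2580 peaks and turned the ratio from below 1 to 1.18. Without wide peaks, the covered length was 721.6 kb in DMSO and 568.9 kb in MC2580. The share of DMSO members with an MC2580 counterpart was 64.9% when the overlap had to reach 50% of the shorter peak, 42.6% for 50% of both peaks, 88.6% when peaks within 1 kb counted, 63.5% among peaks scoring 100 or more, and 70.0% without wide peaks. For MC2580 members the corresponding shares were 79.7%, 46.6%, 97.3%, 81.7% and 84.0%. On the rest of chromosome 8 the DMSO share was 15.0% at a score of at least 100. With promoters of 1 kb, their share was 18.1% of DMSO and 16.5% of MC2580 members and 21.5% of DMSO peaks on the rest of the chromosome. With protein-coding starts only, it was 1.73% and 1.90% of members, and 21.5% and 12.1% of the DMSO and MC2580 peaks elsewhere.

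Windows of 400 bp, longer by construction, raised the share of DMSO members with each word to 34.9% for PU.1, 26.0% for RUNX, 15.1% for AP-1, 23.0% for CEBP, 29.7% for GATA, 3.71% for E-box and 32.9% for GFI1. The shares of MC2580 members became 35.2%, 25.2%, 14.4%, 19.5%, 24.7%, 4.07% and 29.0% in the same order. All 400 bp windows of the blocks, peaks included, held these words in 32.8%, 25.2%, 13.4%, 21.4%, 28.2%, 3.05% and 33.9% of cases. The other DMSO peaks of the chromosome held them in 47.4%, 51.0%, 23.9%, 38.9%, 23.5%, 2.83% and 31.6%. For the other MC2580 peaks the shares were 46.6%, 53.4%, 17.2%, 32.8%, 24.1%, 5.17% and 29.3%. Restricting the motif counts to peaks no wider than 2 kb, which was tried after seeing the data, moved none of the 14 shares beyond its interval. Other checks chosen after seeing the data, the rest of the chromosome at a score of at least 100 or after merging, gave ratios of 0.181 and 0.239. Extending the segment to the 2 adjoining MC2580 peaks gave a ratio of 0.918. The cause of these movements was not tested beyond the construction of each alternative. Unknown depth limits any comparison of scores or peak numbers between the lists.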
